A study of Mus musculus with 24 samples.

Results

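The genes of this account encode the enzymes that make cholesterol and fatty acids in mouse cells, with the proteins that switch them on and a carrier that moves sterols. They were chosen as a list of 30 gene symbols, all 30 were found among the 53379 genes of the deposited tables, and all 30 were among the 19470 genes with enough counts to be tested. The list holds 7 enzymes from acetyl-CoA to farnesyl diphosphate (the mevalonate steps), 11 enzymes from squalene to cholesterol, 6 genes of SREBP control and sterol transport, and 6 enzymes of fatty acid synthesis and desaturation. Their RNA was measured by RNA-seq in 10 libraries of the mouse embryonic stem cell line E14Tg2a.IV. The series also holds 14 ChIP-seq samples, which were not analysed here.

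Each of the 5 groups had 2 libraries. One group was wild type cells at the pluripotent stage, at day 0. The other 4 were embryoid bodies, the cell aggregates that form when stem cells are kept in suspension without LIF, collected at day 4 from wild type cells, Smad2-/- cells, Smad3-/- cells and Smad2/3DKO cells, which lack both. All 5 groups share the E14Tg2a.IV background, and no knockout was measured at day 0. Smad2 and Smad3 are signal proteins that receptors for Nodal, Activin and TGF-beta switch on, and that then act on genes in the nucleus. In the names of the deposited tables, both libraries of each knockout carry the same number after the genotype, and what that number stands for is not given. An effect of a genotype therefore cannot be told apart from an effect of 1 line. The labels do not give the source of each library beyond its group, so the spread behind every p-value here may be technical.

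Cholesterol is built from acetyl-CoA through mevalonate and then squalene, which is closed into a ring and trimmed and reduced step by step. The genes of both pathways are switched on by SREBP transcription factors. Insig proteins hold the SREBP escort protein Scap in the endoplasmic reticulum while sterols are plentiful, and when sterols run low Scap carries SREBP to the Golgi to be cut and released to the nucleus. SREBP binds sterol regulatory elements in the promoters of these genes, usually with NF-Y at a nearby CCAAT box. Growing embryonic cells use the products for new membranes, and cholesterol is also attached to Hedgehog signalling proteins.

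The promoters of 5 members with such a motif are shown because the results below turn on 4 of them, Nsdhl, Hsd17b7, Insig2 and Sc5d, and because Hmgcs1, the enzyme that makes HMG-CoA, was the 1 member found to hold the longer sterol regulatory element there. They come from the RefSeq annotation of GRCm38.p6 and run 5′ to 3′ on the strand of the gene, from 180 bases before the RefSeq start (position -180; -1 is the last base before the start) to the last base before the most upstream annotated start. Capitals mark matches on either strand to TCACNNCA, the shorter form of the sterol regulatory element, which covers the longer TCACNCCAC, and to CCAAT. Hmgcs1 lies at chr13:119690171-119690350 on the plus strand, Nsdhl at chrX:72918341-72918520 on the plus strand, Hsd17b7 at chr1:169969242-169969385 on the minus strand, Insig2 at chr1:121332590-121332769 on the minus strand and Sc5d at chr9:42264301-42264480 on the minus strand. The windows end before the annotated starts of their own genes, and overlap with exons of other genes was not tested.
Hmgcs1: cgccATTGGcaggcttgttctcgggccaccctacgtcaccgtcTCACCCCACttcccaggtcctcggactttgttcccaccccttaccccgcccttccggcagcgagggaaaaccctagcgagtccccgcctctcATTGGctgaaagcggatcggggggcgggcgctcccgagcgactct
Nsdhl: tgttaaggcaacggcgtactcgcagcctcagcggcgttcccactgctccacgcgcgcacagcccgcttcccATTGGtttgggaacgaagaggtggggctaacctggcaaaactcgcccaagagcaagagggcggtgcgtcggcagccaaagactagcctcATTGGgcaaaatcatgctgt
Hsd17b7: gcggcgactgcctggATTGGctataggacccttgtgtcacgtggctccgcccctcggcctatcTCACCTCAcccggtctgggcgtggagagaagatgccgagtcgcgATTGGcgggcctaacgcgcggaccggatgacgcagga
Insig2: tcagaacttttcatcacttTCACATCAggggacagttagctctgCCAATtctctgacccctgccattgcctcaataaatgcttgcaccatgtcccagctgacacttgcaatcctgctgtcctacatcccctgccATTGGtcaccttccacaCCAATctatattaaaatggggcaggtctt
Sc5d: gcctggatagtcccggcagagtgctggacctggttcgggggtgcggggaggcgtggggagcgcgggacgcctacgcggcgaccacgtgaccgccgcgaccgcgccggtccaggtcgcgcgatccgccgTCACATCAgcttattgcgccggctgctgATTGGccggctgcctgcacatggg

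In Hmgcs1 the element TCACCCCAC lies between 2 inverted CCAAT boxes. Hsd17b7 has TCACCTCA at positions -117 to -110, between inverted CCAAT boxes. Insig2 has TCACATCA at -161 to -154, upstream of 3 CCAAT boxes in either orientation, and Sc5d has TCACATCA followed by an inverted CCAAT box. The match of Nsdhl to the shorter form spans its start and is outside the printed bases. The promoter table held 24 of the 30 members, with 32 promoters of 300 bases (250 before the start and 50 after), against 32851 promoters in all; Fdps, Fdft1, Sqle, Stard4, Scd1 and Scd2 had no entry. Searched on both strands, TCACNNCA was in 34.4% of the member promoters and in 13.8% of all promoters, and the longer TCACNCCAC in 3.12% and 1.24%. CCAAT was in 65.6% and 37.4%, the E-box CACGTG in 18.8% and 7.15%, and the GC box GGGCGG in 75.0% and 35.7%. CAGACA, a short SMAD motif, was in 18.8% and 21.0%, and AATNCACA, a FOXH1 motif, in 6.25% and 3.6%. The palindrome GTCTAGAC was in 0 member promoters and in 0.213% of all promoters. These shares describe letters, not bound sites, and the shorter sterol element was added after a first scan had been seen.

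The libraries held 35733249 to 53672980 expected read counts. Several facts of the whole tables touch the members. The 2 wild type day 4 libraries were the least alike: 15.4% of tested genes differed over 2-fold between them, against 3.94% to 11.5% in the other groups, and 6 members did so (Mvk, Mvd, Srebf1, Srebf2, Scap and Fasn), against 0 in any other group. Table names fall into a first and a second series, and the second holds replicate 2 of every group except the double knockout, whose 2 libraries are both in the first. Fold changes followed transcript length across 11214 genes (a Spearman correlation over genes, which are not independent), at -0.682 for Smad2-/- against wild type and 0.632 for wild type day 4 against day 0, but -0.04 for Smad3-/- and 0.065 for the double knockout against wild type. Ribosomal protein genes, which have short transcripts, took 16.79% and 12.46% of counts at day 0, 5.96% and 7.36% in wild type day 4, 8.35% and 8.33% in Smad3-/-, 14.37% and 13.65% in Smad2-/-, and 7.01% and 6.38% in the double knockout. Each comparison is given on 3 scales. One is CPM (counts scaled to the size of each library), and another the same counts with a length and GC offset that removes the trend. The last is log2(TPM + 1), where TPM divides counts by transcript length within each library. It does not remove the trend between libraries, and it shifts genes as a whole. For Smad2-/- against wild type the median of all genes was at -0.01 in CPM and -0.51 on log2(TPM + 1). As a check of the labels, Smad2 RNA was lower by a log2 value of -1.16 in Smad2-/- (adjusted p = 0.00245) and -0.98 in the double knockout (adjusted p = 0.0047). It was still read at 19.2 and 20.3 CPM in Smad2-/- and 22.2 and 22.7 CPM in the double knockout, against 49.9 and 38.3 CPM in wild type at day 4 and 19.1 and 22.0 CPM at day 0. Smad3 RNA was at -0.69 in the double knockout (adjusted p = 0.0136) but at 0.18 in the libraries labelled Smad3-/- (adjusted p = 0.607), so RNA level does not check that label. In Smad2-/-, where Smad3 is not the deleted gene, Smad3 RNA was at -0.49 (adjusted p = 0.0405), and at 0.01 with the offset. The 2 Smad2-/- libraries also differed from each other in primitive streak and mesoderm markers, which summed to 131 TPM in replicate 1 and 6.52 TPM in replicate 2. There T was at 38.5 and 0.35 TPM, Mixl1 at 9.81 and 0.03 TPM and Fgf8 at 58.0 and 2.55 TPM, so the changes that lead the Smad2-/- comparisons are also given without each of these libraries.

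Per unit of transcript, the 30 members together made up 917 to 1112 TPM at day 0 and 1545 to 1555 TPM in wild type embryoid bodies. The sum was 1199 to 1242 TPM in Smad3-/-, 1001 to 1260.2 TPM in Smad2-/- and 1444 to 1568 TPM in the double knockout. In TPM the wild type and double knockout ranges overlapped, and those of the single knockouts lay below both. In CPM the order was another: the sum was 3126 to 3140.4 CPM at day 0, 3199.7 to 3504 CPM in wild type embryoid bodies, 2407 to 2467 CPM in Smad3-/-, 2935 to 3301 CPM in Smad2-/- and 2723 to 2868 CPM in the double knockout. There Smad2-/- overlapped wild type embryoid bodies and the double knockout lay below them. Smad3-/- was below wild type embryoid bodies on both scales. In bulk libraries, fewer cells of a type that makes much of an RNA and less of it in each cell cannot be told apart.

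**Figure D1:**
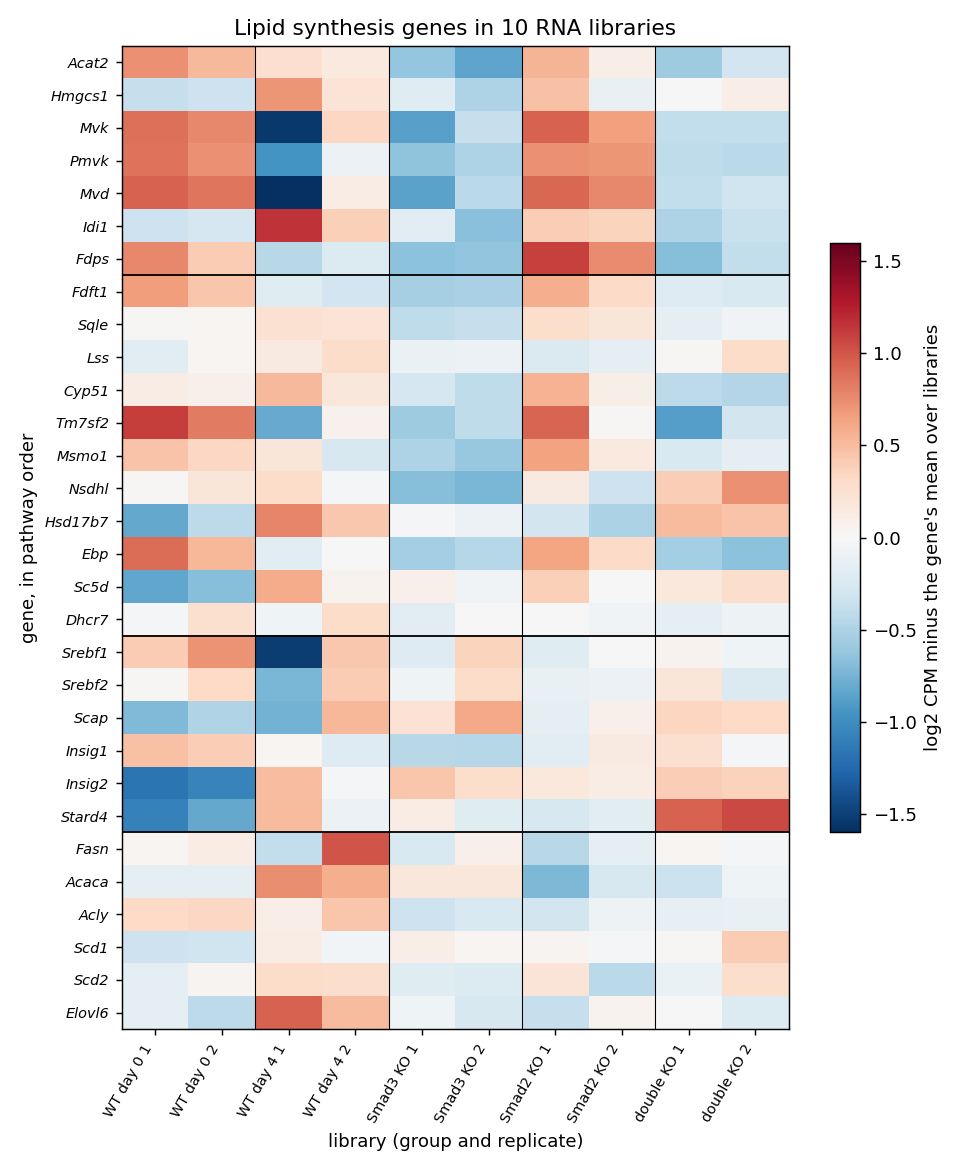
Level of each of the 30 members (rows, ordered by role) in each of the 10 libraries (columns, ordered by group), as log2 CPM minus the gene's mean over the libraries. The colour key gives the log2 difference; Stard4 is high in both double knockout libraries, Fdps in the day 0 and Smad2-/- libraries, and the 2 wild type day 4 libraries differ most in Srebf1, Mvd and Mvk.

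The first comparison asked how the genes changed as wild type cells went from pluripotency to day 4. By edgeR's quasi-likelihood test, 15 of 30 members were called, against 52.1% of all tested genes: 8 rose (28.9% of all genes) and 7 fell (23.2% of all genes), with a median log2 change of 0.12 over the members and 0.1 over all genes. Insig2, one of the proteins that retain Scap, was at 10.0 and 10.7 CPM at day 0 and at 31.7 and 21.9 CPM at day 4. The groups did not overlap, and the log2 change was 1.38 ± 0.21 (SE; adjusted p = 0.000675). Sc5d, which puts a double bond into the sterol ring near the end of the pathway, was at 12.3 and 13.6 CPM at day 0 and at 32.8 and 22.6 CPM at day 4, a log2 change of 1.10 ± 0.22 (adjusted p = 0.00324). These were the 2 members called on all 3 scales: with the offset they rose by 1.20 and 0.64, and on log2(TPM + 1) by 2.23 and 1.95. They also rose within each series of names, Insig2 by 1.66 in the first and 1.04 in the second, and Sc5d by 1.42 and 0.74, and neither lost its call when any 1 of the 10 libraries was left out.

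By role, 2 mevalonate genes rose (Hmgcs1 and Idi1, the isopentenyl diphosphate isomerase) and 3 fell (Pmvk and Mvd, a kinase and the decarboxylase, and Fdps, which makes farnesyl diphosphate). Fdps was at 294 and 228 CPM at day 0 and at 127 and 148 CPM at day 4. In TPM it was at 196 and 193 at day 0 and at 176 and 193 at day 4. The CPM values separated the groups and the TPM values did not. Of the sterol enzymes, Hsd17b7 and Sc5d rose and Fdft1 (squalene synthase), Tm7sf2 and Ebp fell; among the control genes Insig2 and Stard4 rose and Insig1 fell. Leaving out 1 day 0 library ended the calls of Hmgcs1, Mvd and Insig1 in either case, and those of Tm7sf2 (-1.13) and Ebp (-0.61) in the case of replicate 1. Of the fatty acid enzymes, Acaca (acetyl-CoA carboxylase) and Elovl6 (a fatty acid elongase) rose. These splits depended on the scale: with the offset 2 members were higher (24.5% of all genes) and 14 lower (24.9% of all genes). The median was then -0.36, and 7 of the 30 members lay above the median of all genes. In log2(TPM + 1), 17 were higher (49.5% of all genes) and 0 lower (10.4% of all genes), where the median of all 14328 genes was itself at 0.63 and 17 of the 30 members lay above it. Stard4 rose by 1.18 in CPM and was at -0.03 with the offset, and Acaca was at 0.82 and -0.68. Beside these changes, all 12 naive pluripotency markers fell, from a summed 869.6 to 1024 TPM to 205 to 215 TPM, and all 9 primed epiblast markers rose; their part in the members' changes was not tested.

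**Figure D2:**
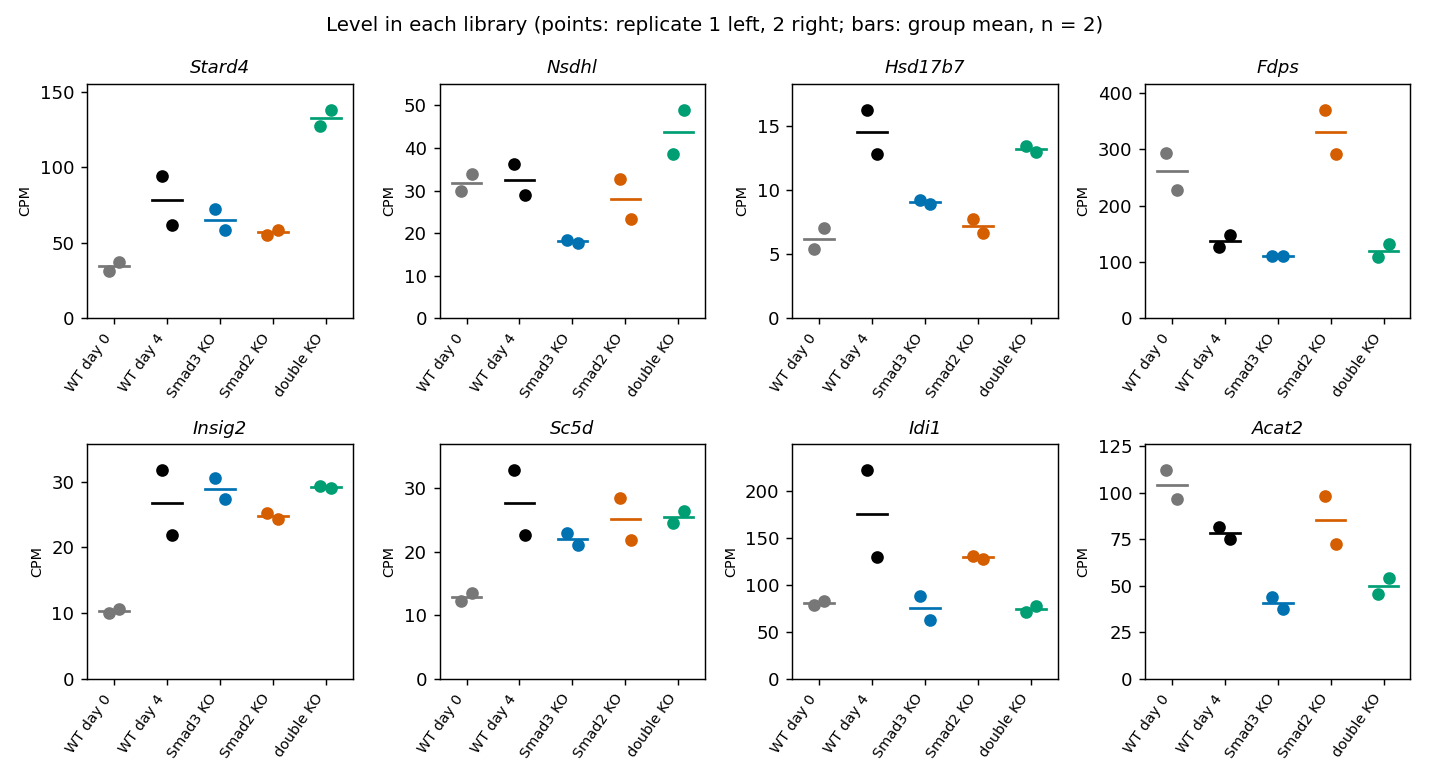
CPM of 8 members in the 10 libraries (1 panel a gene; each point a library, the bar the mean of 2, y axes from 0). Stard4 is highest in the double knockout, Fdps in the Smad2-/- and day 0 libraries, and Hsd17b7 lies at 6.70 to 9.28 CPM in the 4 single knockout libraries and at 12.8 to 16.3 CPM in wild type embryoid bodies.

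The loss of Smad2 was compared with wild type at day 4. Here 7 of 30 members were called, against 35.5% of all tested genes: 4 rose (15.4% of all genes) and 3 fell (20.1% of all genes), and the median was -0.06. Fdps (ENSMUSG00000059743.12, chr3:89093588-89101959, minus strand) was the member called higher on all 3 scales. It was at 369.9 and 292 CPM in Smad2-/- and at 127 and 148 CPM in wild type, with no overlap, and rose by 1.27 ± 0.20 (adjusted p = 0.00248), by 0.61 with the offset and by 0.56 on log2(TPM + 1). It rose by 1.54 in the first series and by 0.98 in the second, and leaving out any 1 library kept the call, at 1.09 without Smad2-/- replicate 1 and 1.43 without replicate 2. In CPM Fdps was also high at day 0, at 294 and 228 CPM. In TPM it was not: day 0 was at 196 and 193 TPM and wild type day 4 at 176 and 193 TPM. Smad2-/- was at 319.9 and 233 TPM. Of the 12 naive pluripotency markers 7 were higher in Smad2-/- than in wild type embryoid bodies, with sums of 237 to 476 TPM against 205 to 215 TPM. Over genes, which are not independent, the Smad2-/- libraries correlated with the day 0 libraries at 0.9268 to 0.9525 and with the wild type day 4 libraries at 0.8626 to 0.9248 (Pearson). The part of such cells in the Fdps level was not tested. Fdps has annotated exons that overlap those of Gm43738 on the same strand, so reads could have been split between them.

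Pmvk, phosphomevalonate kinase, was at 55.5 and 54.5 CPM in Smad2-/- and at 17.3 and 31.5 CPM in wild type, and rose by 1.17 ± 0.25 (adjusted p = 0.00804), or by 1.16 and 1.18 without Smad2-/- replicate 1 and then replicate 2. Mvd (1.34) and Fdft1 (0.70) were the other two called higher, and Hsd17b7 (-1.01), Acaca (-1.14) and Elovl6 (-0.88) fell. The 3 that rose among the 7 mevalonate genes were Pmvk, Mvd and Fdps; Mvk, mevalonate kinase, was at 1.13 ± 0.47 (adjusted p = 0.0889), with wild type libraries at 6.24 and 22.8 CPM. Pmvk, Hsd17b7, Acaca and Elovl6 were not called with the offset, where Acaca was at 0.05 and Elovl6 at 0.17. There 8 members were higher (12.7% of all genes) and 1 lower (13.9% of all genes). On log2(TPM + 1) 1 was higher (5.58% of all genes) and 18 lower (43.0% of all genes), with the median of all genes at -0.51 and 21 of the 30 members below it. Mvd lost its call without 6 of the 10 libraries, 1 at a time: either day 0, Smad2-/- or double knockout library, at 1.27 to 1.41 (adjusted p = 0.0598 to 0.125). Without wild type replicate 2, 14 members were called, against 45.7% of all genes, among them Mvk at 2.35 and Srebf1 at 1.43, both of which were higher in that library than in the other wild type one. Without wild type replicate 1, Hsd17b7 (-0.73, adjusted p = 0.0511) and Elovl6 (-0.54, adjusted p = 0.0842) lost their calls, and Elovl6 did so without Smad2-/- replicate 1 (-0.69).

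**Figure D3:**
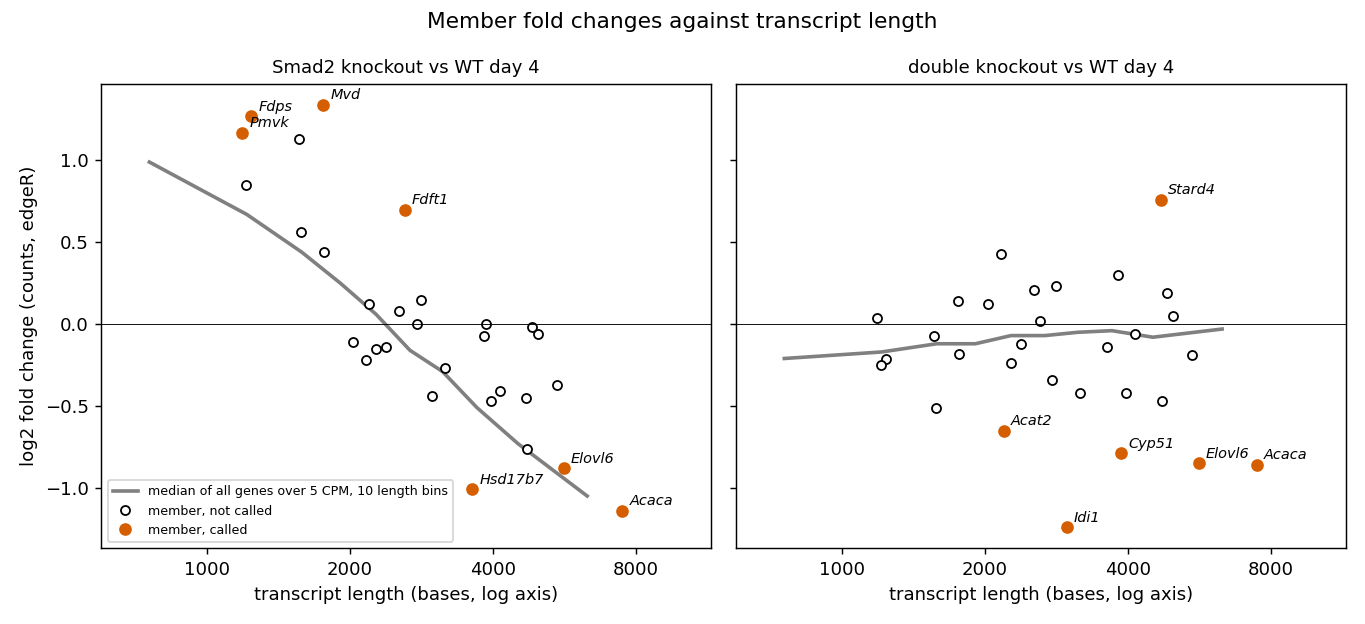
Log2 fold change in CPM (y axis) of the 30 members against transcript length in bases (x axis, log scale), for Smad2-/- against wild type and for the double knockout against wild type. The line joins the medians of all genes with a mean over 5 CPM in 10 bins of length. For Smad2-/- the line falls from 0.99 at a length of 757 to -1.05 at 6323, and for the double knockout it runs from -0.21 to -0.03.

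For Smad3-/- against wild type, 0 members were called by edgeR, against 0.555% of all tested genes (0.431% higher and 0.123% lower), and 11 had an unadjusted p under 0.05 (36.7% of members, against 17.2% of all genes). The log2 values were below 0 for 25 of 30 members, with a median of -0.35 against -0.04 over all genes. Among genes with a mean over 5 CPM, as all members have, the medians of 10 bins of length were at -0.16 to -0.05. All 7 mevalonate genes and all 11 sterol enzymes were below 0, and the 5 above it were Srebf1, Srebf2, Scap, Insig2 and Scd1. The range was -1.22 for Idi1 to 0.40 for Scap. DESeq2 called 5 members lower (Acat2, Idi1, Sqle, Nsdhl and Elovl6) and 0 higher, against 1.46% of all genes lower and 2.60% higher. With the offset edgeR called 6 lower (Acat2, Idi1, Sqle, Fasn, Acly and Elovl6) and 0 higher, against 2.97% of all genes lower and 4.27% higher. Limma on log2(TPM + 1) called 0, against 0.0419% of all genes lower and 0.677% higher, with 22 of 30 members below the median of all genes at 0.04.

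Idi1 (ENSMUSG00000058258.14, chr13:8885501-8892451, plus strand) was at 88.4 and 63.0 CPM in Smad3-/- and at 222 and 130.1 CPM in wild type, a log2 difference of -1.22 ± 0.26 (adjusted p = 0.0728). Acat2, the thiolase that opens the pathway, was at 44.0 and 37.4 CPM against 81.5 and 75.4 CPM, a difference of -0.95 ± 0.20 (adjusted p = 0.0725). Neither gene's groups overlapped, and neither passed the threshold in CPM. Sqle, squalene epoxidase, was at 79.2 and 81.4 CPM against 125 and 122 CPM (-0.63, adjusted p = 0.085), and Nsdhl, a dehydrogenase that helps to strip methyl groups from the sterol ring, at 18.4 and 17.8 CPM against 36.2 and 28.9 CPM (-0.85, adjusted p = 0.118). The result turned on 1 library: without wild type replicate 2, 14 members were called. Of these 9 were lower (5.91% of all genes), with Idi1 at -1.55 and Hmgcs1 at -1.04 among them, and 5 were higher (8.44% of all genes; Srebf1 at 1.62, Scap at 1.19, Mvd at 0.98, Mvk at 0.94 and Srebf2 at 0.85), the lone wild type library then being assumed to vary like the other groups. Without any other single library the count was 0. Trophoblast markers summed to 799 to 965 TPM in Smad3-/- and 343 to 506 TPM in wild type, with 4 of 14 called higher and none at 0. Most of each sum was the keratins Krt8 (237 and 311 TPM against 61.1 and 135 TPM) and Krt18 (444 and 528 TPM against 159 and 248 TPM). Eomes, also on the list, was lower in Smad3-/-, at 41.6 and 42.9 TPM against 97.8 and 90.3 TPM. The sum therefore does not show trophoblast cells by itself, and the part of any cell type was not tested.

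The double knockout was compared with wild type at day 4, and shares those wild type libraries with both single knockout comparisons. Of 30 members 6 were called, against 23.1% of all tested genes: 1 was higher (10.8% of all genes) and 5 lower (12.3% of all genes), with a median of -0.16 against -0.05 over all genes. Stard4, a soluble carrier that moves cholesterol between membranes, was at 127 and 138 CPM in the double knockout and at 93.9 and 62.0 CPM in wild type. The groups did not overlap, and the other 8 libraries of the series lay between 31.2 and 93.9 CPM. Its log2 change was 0.76 ± 0.22 (adjusted p = 0.0339), 0.96 with the offset and 0.97 on log2(TPM + 1), and it was called on all 3. The rise was 0.49 within the first series, and the call was lost without wild type replicate 2 (0.49, adjusted p = 0.0774), without either double knockout library (0.82, adjusted p = 0.111, and 0.70, adjusted p = 0.166) or without either Smad3-/- library. The tables list Stard4 as ENSMUSG00000024378.9, on chromosome 18.

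Idi1 fell to 71.0 and 78.0 CPM, by a log2 value of -1.24 ± 0.26 (adjusted p = 0.00793). Acaca was at 51.3 and 62.1 CPM against 109 and 96.9 CPM in wild type, and fell by 0.86 ± 0.19 on the log2 scale (adjusted p = 0.0111). Elovl6 (-0.85), Cyp51, the lanosterol demethylase (-0.79), and Acat2 (-0.65) also fell. All 5 remained below 0 and called with the offset, and were at -0.97 to -0.46 on log2(TPM + 1), where none was called and the median of all genes was at 0.13. Without double knockout replicate 1 none of the 5 kept its call (from -1.17 for Idi1 to -0.53 for Acat2), and without replicate 2 only Acaca did. Without wild type replicate 1, Acat2 (-0.52), Cyp51 (-0.54) and Elovl6 (-0.54) lost theirs, and Acat2 lost its call without 7 of the 10 libraries in all, 1 at a time. With the offset 4 members were higher (19.6% of all genes) and 7 lower (17.8% of all genes), and on log2(TPM + 1) 1 was higher (14.3% of all genes) and 0 lower (7.13% of all genes). The 6 control and transport genes were all above 0, with a median of 0.22, and Stard4 was the 1 of them that passed the test.

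**Figure D4:**
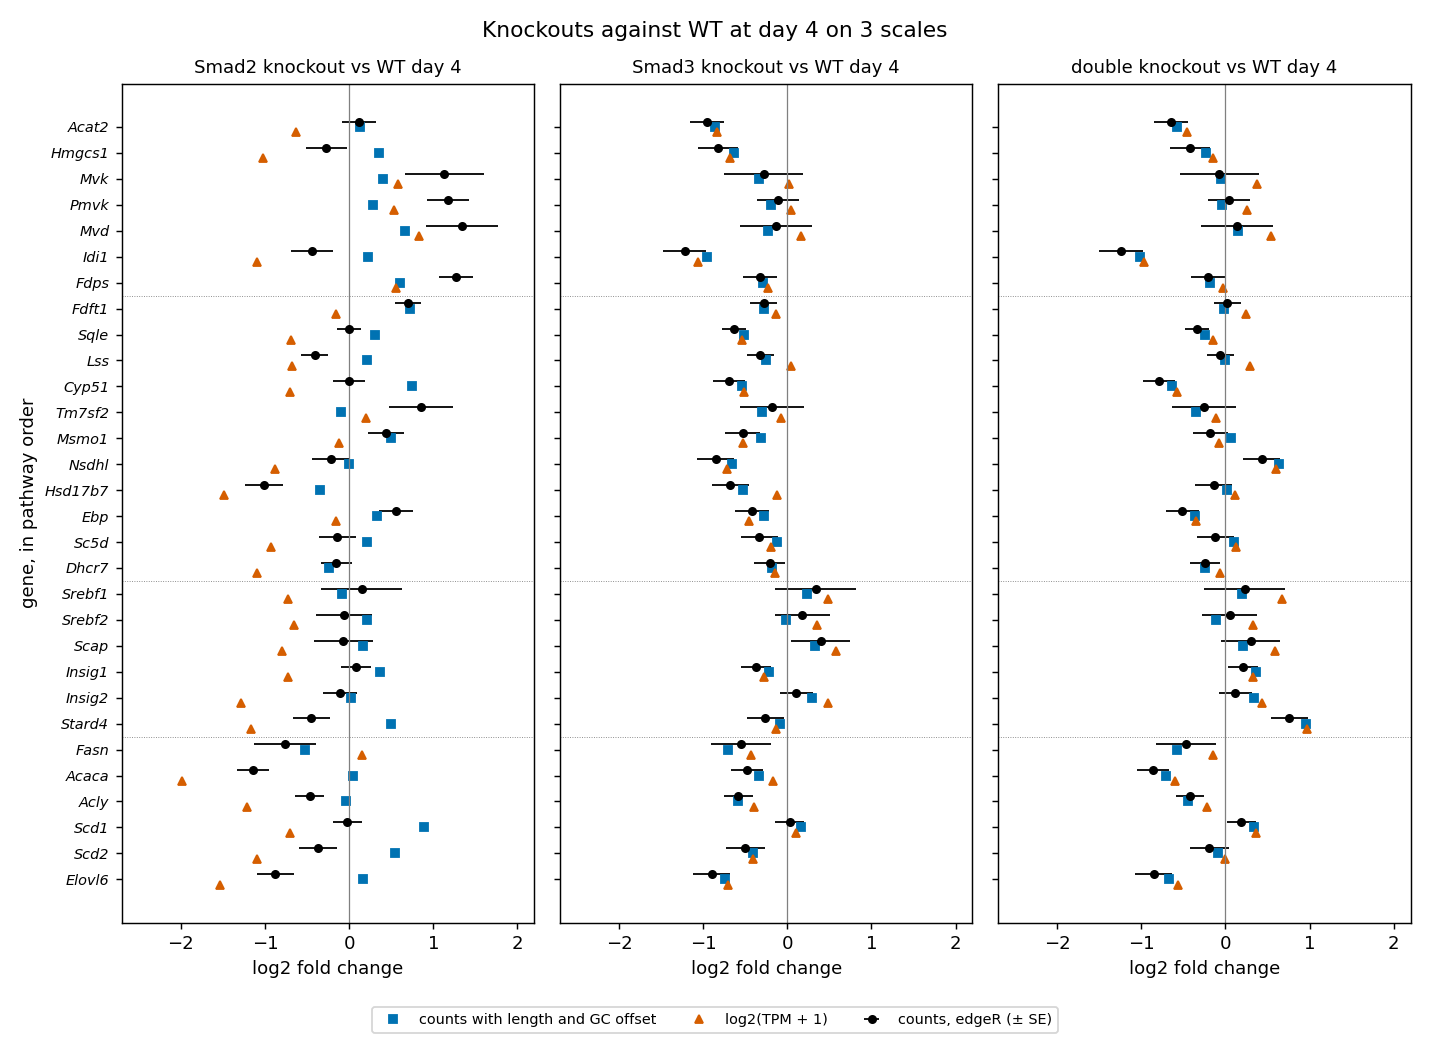
Log2 fold change of each member (rows) for Smad2-/-, Smad3-/- and Smad2/3DKO against wild type at day 4 (panels) on 3 scales: CPM with its standard error, CPM with a length and GC offset, and log2(TPM + 1). The 3 scales lie close together for Smad3-/- and the double knockout and spread widely for Smad2-/-.

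In the double knockout, trophoblast markers summed to 3185 to 4063 TPM, with 12 of 14 higher and 1 lower than in wild type, and in Smad2-/- to 1262 to 2055 TPM, with 13 higher and 1 lower. Primed epiblast markers summed to 194 to 201 TPM in the double knockout and 152 to 156 TPM in Smad2-/-, against 942 to 993 TPM in wild type, with 9 and 7 of 9 lower. Primitive streak and mesoderm markers summed to 5.57 to 7.16 TPM in the double knockout, 6.52 to 131 TPM in Smad2-/- and 163 to 199 TPM in Smad3-/-, against 264 to 355 TPM in wild type. Naive pluripotency markers summed to 355 to 457 TPM in the double knockout, with 4 of 12 higher than in wild type. Endoderm markers were lower for 12 of 16 genes in the double knockout and 14 of 16 in Smad2-/-. Marker levels thus differed between the genotypes, and the part of these cell types in the values of the lipid genes was not tested. Of the hepatocyte genes, Cyp7a1 was at 0 counts in all 5 groups, and the list summed to at most 26.2 TPM.

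The 2 single knockouts share no library with each other, so that comparison does not depend on the wild type libraries for its fold changes. Of the 30 members 12 were called, against 33.6% of all tested genes: 11 were higher in Smad2-/- than in Smad3-/- (15.7% of all genes) and 1 lower (17.9% of all genes). Of the 11 higher, 6 were mevalonate genes: 6 of 7 were called, with a median of 1.28 against -0.02 over all genes, and the seventh, Hmgcs1, was at 0.54 ± 0.24 (adjusted p = 0.105). With the offset all 7 were called higher, with a median of 0.90. On log2(TPM + 1) 1 of 7 was called, and all 7 lay above the median of all genes, which was at -0.57. Fdps, at 369.9 and 292 CPM in Smad2-/- and 109.6 and 111 CPM in Smad3-/-, differed by 1.58 ± 0.20 (adjusted p = 0.00173), by 1.75 and 1.39 within the 2 series, and was called on all 3 scales. Acat2 was at 98.4 and 72.4 CPM against 44.0 and 37.4 CPM, a difference of 1.07 ± 0.20 (adjusted p = 0.00511). Fdps, Fdft1 and Acat2 kept their calls without any 1 library, and Pmvk lost its call only without Smad3-/- replicate 1 (1.21, adjusted p = 0.0595). Mvk and Idi1 lost theirs without 8 of the 10 libraries, 1 at a time, and Mvd without any 1 of the 4 compared. Without 1 of those 4, Mvk was at 1.18 to 1.68, Mvd at 1.28 to 1.70 and Idi1 at 0.55 to 1.04. Without Smad2-/- replicate 1 and then replicate 2, Fdps was at 1.40 and 1.75 and Acat2 at 0.83 and 1.27.

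Of the sterol enzymes 5 of 11 were higher in Smad2-/- than in Smad3-/- (Fdft1, Sqle, Cyp51, Msmo1 and Ebp), by 0.63 to 0.98. None of the 5 was called on log2(TPM + 1), and without Smad3-/- replicate 1 only Fdft1 kept its call, the others being at 0.61 to 1.02. Acaca was the 1 member lower, at -0.65 (adjusted p = 0.0283), and was at 0.39 with the offset. Over the list, 20 members were higher (14.0% of all genes) and 0 lower (15.5% of all genes) with the offset. On log2(TPM + 1) 1 was higher (3.54% of all genes) and 13 lower (44.5% of all genes).

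The double knockout against Smad2-/- gave 12 of 30 members called, against 39.6% of all tested genes: 3 were higher (20.5% of all genes) and 9 lower (19.1% of all genes). All 7 mevalonate genes were below 0, with a median of -1.14, and 4 were called: Fdps (-1.47 ± 0.20, adjusted p = 0.00106), Pmvk (-1.14), Idi1 (-0.80) and Acat2 (-0.77). With the offset 6 of 7 were lower, and on log2(TPM + 1) 6 of 7 lay below the median of all genes, at 0.65; Hmgcs1, at 0.86, was the exception. The double knockout libraries held 108 and 131 CPM of Fdps, near the 109.6 and 111 CPM of Smad3-/-. The other 5 called lower were sterol enzymes: Tm7sf2 (-1.11), Ebp (-1.07), Cyp51 (-0.79), Fdft1 (-0.68) and Msmo1 (-0.62). With 1 library left out at a time, they were in that order at -1.5 to -0.58, -1.23 to -0.9, -1.0 to -0.54, -0.81 to -0.53 and -0.84 to -0.35. Tm7sf2 and Msmo1 each lost their calls without 7 of the 10 libraries, and Cyp51 and Fdft1 without 3, while Ebp kept its call. None of the 5 was called on log2(TPM + 1), and Tm7sf2 was not called with the offset. Stard4 (1.21 ± 0.22, adjusted p = 0.00324), Hsd17b7 (0.88) and Nsdhl (0.64, adjusted p = 0.0426) were higher. Hsd17b7 was not called with the offset (0.36, adjusted p = 0.109) and lost its call without 3 of the 10 libraries, 1 at a time. Fdps, Stard4 and Nsdhl were called on all 3 scales, and were at -1.63, 1.26 and 0.42 within the first series. Of these, Nsdhl lost its call without 7 of the 10 libraries, 1 at a time, and was at 0.42 (adjusted p = 0.202) without Smad2-/- replicate 2 and at 0.47 (adjusted p = 0.248) without double knockout replicate 2. Fdps and Stard4 lost none: without Smad2-/- replicate 1 and then replicate 2 they were at -1.29 and -1.63, and at 1.17 and 1.26. Idi1 lost its call without 6 of the 10 libraries (-0.87 to -0.73, adjusted p up to 0.158). Pmvk lost its call without double knockout replicate 1 (-1.15) or 2 (-1.12), and Acat2 without Smad2-/- replicate 1 (-0.53) or double knockout replicate 1 (-0.65). Over the list, 2 members were higher (20.3% of all genes) and 16 lower (17.6% of all genes) with the offset. There were 18 higher (49.4% of all genes) and 1 lower (4.70% of all genes) on log2(TPM + 1).

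The double knockout against Smad3-/- also does not depend on the wild type libraries for its fold changes. Its p-values still use a spread fitted over all 10 libraries. It gave 2 of 30 members called, against 15.5% of all tested genes: 2 were higher (7.53% of all genes) and 0 lower (8.01% of all genes). Nsdhl was at 38.7 and 49.0 CPM in the double knockout and 18.4 and 17.8 CPM in Smad3-/-, a rise of 1.28 ± 0.22 (adjusted p = 0.00515), and of 1.25 within the first series. Stard4 was at 127 and 138 CPM against 72 and 58.1 CPM, a rise of 1.02 ± 0.22 (adjusted p = 0.0137), and of 0.88 within the first series. The groups did not overlap for either gene, and both were called on all 3 scales. Nsdhl lost its call without Smad3-/- replicate 2 (1.25, adjusted p = 0.0545) or double knockout replicate 2 (1.10, adjusted p = 0.0559), and Stard4 without any 1 of the 4 libraries compared (0.88 to 1.18, adjusted p up to 0.132). With the offset 4 members were higher (15.2% of all genes) and 0 lower (13.9% of all genes), and on log2(TPM + 1) 2 were higher (8.50% of all genes) and 0 lower (5.83% of all genes). Idi1 differed by -0.02 ± 0.25 and Fdps by 0.11 ± 0.20 between these genotypes. Trophoblast markers stood at 3185 to 4063 TPM against 799 to 965 TPM, and their part was not tested.

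A test of the interaction asked whether the loss of Smad2 had the same effect in the cells labelled Smad3-/- as in wild type cells. It was called for 4 of 30 members, against 18.9% of all tested genes: above 0 for 3 (11.3% of all genes) and below 0 for 1 (7.52% of all genes). Nsdhl was at -0.22 ± 0.22 for Smad2-/- against wild type and at 1.28 ± 0.22 for the double knockout against Smad3-/-, an interaction of 1.49 ± 0.31 (adjusted p = 0.0154). For Hsd17b7, a reductase of the same demethylation step, the 2 effects were -1.01 and 0.54 and the interaction 1.56 ± 0.32 (adjusted p = 0.0143). Its libraries held 16.3 and 12.8 CPM in wild type, 7.73 and 6.70 CPM in Smad2-/-, 9.28 and 8.93 CPM in Smad3-/- and 13.5 and 13.0 CPM in the double knockout. In CPM both single knockouts were thus below wild type in every library, while the double knockout overlapped it. The Smad3-/- difference of Hsd17b7 from wild type was not called (-0.68, adjusted p = 0.18). With the offset neither Smad2-/- (-0.34, adjusted p = 0.151) nor Smad3-/- (-0.53, adjusted p = 0.0792) was called against wild type. In TPM the double knockout, at 6.4 and 6.78, lay above wild type, at 6.05 and 5.92. For Stard4 the effects were -0.45 and 1.02 and the interaction 1.47 ± 0.31 (adjusted p = 0.0158).

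These 3 interactions were called on all 3 scales: with the offset they were 1.31 for Nsdhl, 0.90 for Hsd17b7 and 0.55 for Stard4 (adjusted p = 0.0474), and on log2(TPM + 1) 2.19, 1.73 and 2.27, where the median of all genes was at 0.62. From the 5 embryoid body libraries of the first series alone the values were 1.40, 1.59 and 1.64. Each lost its call without 3 or 4 of the 10 libraries, 1 at a time, all of them Smad3-/- or double knockout libraries, with adjusted p up to 0.0758 for Nsdhl, 0.0784 for Hsd17b7 and 0.0812 for Stard4. Fdps had an interaction of -1.16 ± 0.28 (adjusted p = 0.0243), with effects of 1.27 and 0.11, but was at -0.49 (adjusted p = 0.131) with the offset and -0.36 (adjusted p = 0.332) on log2(TPM + 1). Over the list, 4 members were called above 0 (8.98% of all genes) and 2 below (7.42% of all genes) with the offset. Called above 0 on log2(TPM + 1) were 15 (35.5% of all genes), and 0 were below (2.95% of all genes).

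Of the 30 members 21 were called in at least 1 of the 8 comparisons in CPM, and 9 in none: Lss, Dhcr7, Srebf1, Srebf2, Scap, Fasn, Acly, Scd1 and Scd2. The share of all genes called in at least 1 of the 8 is not given here. Single comparisons called 0.555% to 52.1% of all genes, so the count of 21 does not set the members apart. Dhcr7, the reductase of the last step to cholesterol, kept to the narrowest range in CPM, 40.6 to 55.9 over the 10 libraries, with log2 changes of -0.24 to 0.11 in the 8 comparisons. This did not hold in TPM, where Dhcr7 ran from 13.5 to 40.6. By limma on log2(TPM + 1) it was called at 1.08 from day 0 to day 4 (adjusted p = 0.00321). It was called at -1.10 for Smad2-/- against wild type (adjusted p = 0.00424) and -0.96 against Smad3-/- (adjusted p = 0.00786). It was also called at 1.04 for the double knockout against Smad2-/- (adjusted p = 0.00444) and at 1.18 for the interaction (adjusted p = 0.0204). The medians of all genes there were 0.63, -0.51, -0.57, 0.65 and 0.62 in that order. With the offset Dhcr7 was not called from day 0 to day 4 (0.04, adjusted p = 0.768) or for Smad2-/- against wild type (-0.24, adjusted p = 0.139). Nor was it called for Smad2-/- against Smad3-/- (-0.06, adjusted p = 0.722) or for the double knockout against Smad2-/- (adjusted p = 0.999). Lss, which closes squalene into lanosterol, ran from 52.5 to 75.2 CPM, and Scd1, a desaturase that makes oleic acid, from 68.9 to 115 CPM. Srebf1 was at 19.8 and 76.9 CPM in the 2 wild type embryoid body libraries and at 49.3 and 73.0 CPM in Smad3-/-. Srebf2 was at 124 and 272 CPM, Scap at 22.1 and 54.0 CPM, and Fasn, fatty acid synthase, at 177 and 469 CPM in the same 2 libraries. In CPM no difference of these 4 genes from wild type embryoid bodies passed the test. On the other scales some did: with the offset Fasn was at -0.52 in Smad2-/- (adjusted p = 0.0188), -0.70 in Smad3-/- (adjusted p = 0.018) and -0.58 in the double knockout (adjusted p = 0.00759) against wild type. From day 0 to day 4, Srebf2 was at -0.74 (adjusted p = 0.000797) and Srebf1 at -0.64 (adjusted p = 0.018) with the offset. On log2(TPM + 1) Scap was at 1.38 from day 0 to day 4 (adjusted p = 0.00202) and at -0.80 for Smad2-/- against wild type (adjusted p = 0.0352). Acly, which supplies acetyl-CoA from citrate, ran from 229 to 394 CPM and Scd2 from 281 to 463 CPM.

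A further 42 lipid genes, of sterol and fatty acid metabolism outside the list, gave 41 that could be tested. From day 0 to day 4, 15 rose (28.9% of all genes) and 5 fell (23.2% of all genes), with a median of 0.31; with the offset 12 were higher and 12 lower, with a median of 0.03. Against wild type, 5 rose (15.4% of all genes) and 12 fell (20.1% of all genes) in Smad2-/-, while with the offset 6 were higher and 4 lower. In Smad3-/- 1 rose (0.431% of all genes; Lpin1, a phosphatidate phosphatase, at 1.16, adjusted p = 0.0465) and 0 fell, and with the offset 2 were higher and 1 lower. In the double knockout 6 rose (10.8% of all genes) and 7 fell (12.3% of all genes), and with the offset 7 were higher and 9 lower. Abca1, which exports cholesterol, was at 16.5 and 19.2 CPM in the double knockout and at 6.56 and 4.99 CPM in wild type, a rise of 1.63. It was at 5.02 and 4.49 CPM in Smad3-/- and at 1.91 and 3.56 CPM in Smad2-/-, so the double knockout libraries were the highest of all 10. The other 5 that rose in the double knockout were Lpin1 (1.07), Elovl1 (1.03), Me1 (0.90), Osbp (0.74) and Acat1 (0.49). Genes of polyunsaturated fatty acid synthesis and activation were among the 7 that fell: Acsl4 (-1.52), Fads2 (-1.0), Elovl5 (-0.95) and Fads1 (-0.86), with Hsd17b12, Hacd3 and Acsl3 at -0.71 to -0.65. The 13 genes called here in CPM were also called in the same direction with the offset.

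Gpam, which starts the making of glycerolipids, was at 2.09 and 3.9 CPM in Smad2-/- and at 22.5 and 24.3 CPM in wild type, a log2 change of -2.96 (adjusted p = 0.000726) that was -2.50 with the offset. It was at 23.7 and 25.5 CPM in Smad3-/-, at 19.3 and 15.1 CPM in the double knockout and at 2.75 and 4.0 CPM at day 0. The Smad2-/- level thus overlapped the day 0 level and no day 4 level of another genotype. The interaction was called above 0 for 6 of the 41 genes, led by Abca1 (2.98) and Gpam (2.44), and below 0 for 2, against 11.3% and 7.52% of all genes. With the offset it was called above 0 for 3 and below 0 for 6, with Abca1 at 1.66 and Gpam at 1.96.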

How the data were processed

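RNA-seq libraries from 10 samples in 5 groups of 2 were analysed. Per the submitters' processing notes, FastQC 0.11.5, STAR and RSEM are among the tools named, with the mm10 build; no role is stated for any tool, and the annotation version and strand use in counting are not given in these sources. The authors deposited RSEM tables of expected counts, TPM and FPKM per gene, of which FPKM was not used; 12.19% to 14.62% of genes had an expected count that was not whole. The deposited expected counts were rounded to whole numbers. Gene symbols, positions and GC content came from GENCODE M21 on GRCm38, whose symbols matched 53274 of 53379 identifiers (50604 with the version). Transcript lengths were those of the deposited RSEM tables, averaged over the libraries.

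Counts were scaled with TMM, filtered with filterByExpr and fitted with edgeR 4.0.16 (R 4.3.3) in 1 quasi-likelihood model over the 5 groups with 5 residual degrees of freedom. P-values were adjusted by Benjamini-Hochberg over 19470 genes, with 0.05 as the threshold; SE is the standard error of the fitted log2 change. The common biological coefficient of variation was 0.248. The second scale used a per-library offset fitted on length and GC content. The third tested log2(TPM + 1) with limma 3.58.1 over 14328 genes with a mean of at least 1 TPM; the pseudocount understates changes of low genes. DESeq2 1.42.0 was an alternative. The scripts were tested on simulated data. Some members share exon bases with another gene (Fdps, Fdft1, Cyp51, Tm7sf2, Scap, Lss, Srebf1, Scd2, Hmgcs1, Idi1 and Elovl6), so their counts are uncertain.

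All 30 members are named, by a rule that names each of them; other genes come from lists. The members and the lists were chosen with earlier results of these data known. The lists of lipid genes and cell type markers are those named in the report. Neuroectoderm markers summed to 30.9 to 31.5 TPM in wild type embryoid bodies and 6.32 to 8.92 TPM in Smad2-/- and double knockout ones. Nes made up most of these sums, at 29.8 and 30.2 TPM in wild type and 4.9 to 6.47 TPM in those knockouts. Of the 5 neuroectoderm markers tested, 1 was called higher and 1 lower in each of these knockouts against wild type. Fibroblast and stroma markers summed to 13.5 to 28.8 TPM in all 10 libraries.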

Additional observations from a re-analysis of the deposited data

Results flagged for a closer look

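The effect of Smad2 loss differed between wild type cells and the cells labelled Smad3-/-, by the interaction test, for 4 of 30 members. The test called 18.9% of all tested genes, 11.3% above 0 and 7.52% below 0. Smad3 RNA was not lower in the libraries labelled Smad3-/- (0.18 on the log2 scale; 49.7 and 48.7 CPM against 42.0 and 44.8 CPM in wild type), so these directions rest on that label. In Nsdhl the difference was 1.49 on the log2 scale (-0.22 in wild type and 1.28 in cells labelled Smad3-/-). In Hsd17b7 it was 1.56 (-1.01 and 0.54), and in Stard4 1.47 (-0.45 and 1.02). In Fdps it was -1.16 (1.27 and 0.11), and it lost its call on log2(TPM + 1) and once an offset for length and GC was added. All 4 rest on 2 libraries a group, and each call was lost without some single libraries: for Fdps 5 of 10, with an adjusted p of up to 0.102 without double knockout replicate 1.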

How the results depend on the processing

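The limits are 2 libraries a group, wild type embryoid body libraries that differed from each other, and a length trend that ran with the Smad2-/- comparisons. Changes within the replicate spread were not detectable at this number of libraries. The alternatives were size factors by RLE, no filter (32651 genes), a filter of 5 CPM in 2 libraries (12257 genes), a replicate block, a block for the series of table names, a fit of the compared groups alone, DESeq2, log2(TPM + 1) and log2(TPM + 0.1) with limma, the length and GC offset, and leaving out each library. RLE and the stricter filter moved no count of members called by over 1.5 times. The labels do not say that replicate numbers pair the samples. With the replicate block, members called were 16, 7, 0, 6, 12, 13, 2 and 4 in the 8 comparisons in the order of the report, against 15, 7, 0, 6, 12, 12, 2 and 4 without it. Deviations of same-numbered libraries correlated at 0.113 to 0.51 among the other groups and at -0.18 to -0.035 with the double knockout; with the double knockout numbers crossed, an alternative chosen after seeing the data, 17, 8, 2, 6, 13, 14, 2 and 4 were called.

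Counts of members called moved as follows; the causes were not tested. The compared groups alone, a fit with fewer samples, gave 2 for Smad2-/- and 1 for the double knockout against wild type, and 7 for the double knockout against Smad3-/-. Both TPM scales gave 19 for Smad2-/- and 1 for the double knockout against wild type, 19 for the double knockout against Smad2-/- and 15 for the interaction. The offset gave 6 for Smad3-/- and 11 for the double knockout against wild type, 20 for Smad2-/- against Smad3-/- and 4 for the double knockout against Smad3-/-. Without a filter, 5 were called for Smad3-/- against wild type and 7 for the interaction. DESeq2 gave 5, the series block 2 and the crossed block 2 for Smad3-/- against wild type. Leaving out 1 library at a time gave 10 to 17 for wild type day 4 against day 0, 6 to 14, 0 to 14 and 0 to 11 for Smad2-/-, Smad3-/- and the double knockout against wild type, 3 to 16 for Smad2-/- against Smad3-/-, 3 to 15 and 0 to 3 for the double knockout against Smad2-/- and Smad3-/-, and 0 to 13 for the interaction. The highest counts of the 3 comparisons with wild type embryoid bodies, and of the interaction, were those without wild type replicate 2.

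The log2 changes that turned sign, with a call in at least 1 of the fits compared, were these. With the length and GC offset they were for wild type day 4 against day 0 Lss -0.52, Cyp51 -0.68, Stard4 -0.03, Acaca -0.68, Scd1 -0.79, Scd2 -0.79 and Elovl6 -0.33. They were for Smad2-/- against wild type Cyp51 0.75, Stard4 0.50, Acaca 0.05, Scd1 0.89 and Elovl6 0.17; for Smad2-/- against Smad3-/- Lss 0.47, Stard4 0.59, Acaca 0.39 and Scd1 0.72. They were for the double knockout against Smad2-/- Srebf2 -0.33, Acaca -0.76, Acly -0.41, Scd1 -0.55 and Elovl6 -0.84; for the interaction Scd1 -0.71. On log2(TPM + 1) and then log2(TPM + 0.1) they were for wild type day 4 against day 0 Fdft1 (0.17, 0.17), Ebp (0.01, 0.01), Dhcr7 (1.08, 1.12), Insig1 (0.45, 0.46) and Acly (0.85, 0.86). They were for Smad2-/- against wild type Acat2 (-0.63, -0.64), Fdft1 (-0.15, -0.15), Sqle (-0.69, -0.71) and Insig1 (-0.73, -0.75). They were for Smad2-/- against Smad3-/- Idi1 (-0.04, -0.04), Fdft1 (-0.02, -0.02), Sqle (-0.16, -0.16), Cyp51 (-0.19, -0.19), Sc5d (-0.75, -0.80), Dhcr7 (-0.96, -1.0), Acly (-0.80, -0.81) and Elovl6 (-0.85, -0.89). They were for the double knockout against Smad2-/- Acat2 (0.17, 0.18), Hmgcs1 (0.86, 0.87), Idi1 (0.13, 0.14), Fdft1 (0.39, 0.39), Sqle (0.54, 0.55), Cyp51 (0.12, 0.13), Msmo1 (0.05, 0.05) and Dhcr7 (1.04, 1.08). Without wild type replicate 2, Scap was at 0.72 for Smad2-/-, Mvk at 0.94 and Mvd at 0.98 for Smad3-/-, and Mvk at 1.15 for the double knockout, each against wild type. Without wild type replicate 1 the same changes were -0.47 for Scap, -0.67 for Mvd and -0.65 for Mvk in the double knockout. No such change occurred under the other alternatives.

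Leaving aside the fits without 1 library, the counts called over all genes tested that moved by over 1.5 times were these. For Smad2-/- against wild type, 6904 genes were called, and 2230 in the compared groups alone. For Smad3-/- against wild type, 108 genes were called, and 1096 without a filter, 258 with the crossed block, 278 with the series block, 0 in the compared groups alone, 791 by DESeq2, 54 on log2(TPM + 0.1) and 1409 with the offset. For the double knockout against wild type, 4506 genes were called, and 2637 in the compared groups alone, 2743 on log2(TPM + 0.1) and 7282 with the offset. For the double knockout against Smad3-/-, 3025 genes were called, and 6429 in the compared groups alone, 1694 on log2(TPM + 0.1) and 5673 with the offset. For the interaction, 3673 genes were called, and 5512 on log2(TPM + 1). Leaving out 1 library at a time, all-gene counts ran from 6565 to 10979 for wild type day 4 against day 0, from 4694 to 8906 for Smad2-/- against wild type, from 3 to 2793 for Smad3-/- against wild type, from 2176 to 6114 for the double knockout against wild type, from 1997 to 8618 for Smad2-/- against Smad3-/-, from 3806 to 9495 for the double knockout against Smad2-/-, from 1068 to 4383 for the double knockout against Smad3-/- and from 397 to 7088 for the interaction. The highest counts of wild type day 4 against day 0, of the 3 genotypes against wild type and of the interaction were those without wild type day 4 replicate 2, and the highest of the others those without replicate 1. The share of all calls that were higher was 55.4%, 43.4%, 77.8%, 46.7%, 46.7%, 51.8%, 48.5% and 60.1% in CPM in the 8 comparisons, and 82.7%, 11.5%, 94.2%, 66.7%, 7.36%, 91.3%, 59.3% and 92.3% on log2(TPM + 1).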
